A study of Rattus norvegicus with 24 samples.

Results

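The genes described here are Myh6, Myh7 and Acta1, 3 of the 23098 gene IDs counted in a study of the heart after spinal cord injury (SCI) in male Wistar rats. They were chosen by their Ensembl IDs, ENSRNOG00000025757 for Myh6, ENSRNOG00000016983 for Myh7 and ENSRNOG00000017786 for Acta1. This rule uses no measured value, although earlier results of these data were known when they were chosen. All 3 passed the filter on low counts. The series holds 24 libraries in 4 groups of 6: complete transection of the cord at a high thoracic level with tissue taken after 1 day, 3 days or 12 weeks, and sham surgery, in which the dura was opened without cutting the cord, with tissue taken after 7 days. All tissue was flash-frozen left ventricle, cut from its free wall at mid height. The labels give no age for the rats. The question behind the comparison is how loss of descending nerve control changes the heart's RNA over time.

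Myosin heavy chain is the motor protein of the sarcomere. Myh6 encodes the alpha chain, the faster isoform that dominates the ventricle of the adult rat, and Myh7 encodes the beta chain, the slower isoform of the fetal rat ventricle. A shift of RNA from Myh6 to Myh7 is a textbook sign of pressure overload and of low thyroid hormone in rodents. Acta1 encodes skeletal alpha actin, a thin filament protein that the rodent heart makes alongside cardiac alpha actin and that belongs to the same fetal gene program.

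Myh6 and Myh7 are neighbours on rat chromosome 15 with no protein-coding gene between them in RefSeq (GRCr8), and each carries a microRNA within its span. The mature sequences of these microRNAs are shown because they tie the myosin pair together beyond the coding genes; capitals mark the seed, bases 2 to 8, from RefSeq (GRCr8).
rno-miR-208a-3p, in Myh6, chr15:32395568-32395585, minus strand: aUAAGACGagcaaaaagc
rno-miR-208b-3p, in Myh7, chr15:32421648-32421665, minus strand: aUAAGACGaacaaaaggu
The 2 share their seed and match at 15 of 18 positions. MicroRNA levels were not analysed here.

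Acta1 lies on chromosome 19. Its promoter is printed because Acta1 is the member whose level differed between groups. The window runs from 250 bases before to 50 bases after the RefSeq start, and capitals mark, in order, a CArG box, an MCAT element and a TATA box.
Acta1 promoter, GRCr8, chr19:68784145-68784444, minus strand: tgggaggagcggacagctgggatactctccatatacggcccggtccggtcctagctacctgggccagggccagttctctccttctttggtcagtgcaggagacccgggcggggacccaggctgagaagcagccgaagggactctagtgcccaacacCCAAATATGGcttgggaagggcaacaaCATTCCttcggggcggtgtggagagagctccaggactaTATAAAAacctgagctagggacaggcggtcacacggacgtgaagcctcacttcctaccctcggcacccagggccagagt
The CArG box, the site type bound by serum response factor, spans positions -94 to -85 from the start. The MCAT element CATTCC, the site type bound by TEAD factors, spans -67 to -62. The sequence TATAAAA spans -29 to -23. Searched on both strands, a CArG box occurs at least once in 1.64% of 33469 windows of this length, CATTCC in 14.2% and TATAAAA in 5.96%. A match of letters is a description and not a measured binding site.

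The libraries held 15002476 to 70340174 counts. Levels are given as CPM, counts scaled to the library total and by TMM factors, which correct for differences in library make-up. Myh6, a defining gene of working heart muscle, took 1.97 to 2.86% of all counts of a library, and the lowest count of any member in any library was 1234, for Acta1. By the numbers in their labels, libraries 57 to 68 hold 3 days and sham, and libraries 77 to 88 hold 1 day and 12 weeks. Differences of 1 day or 12 weeks from sham, and of 1 day or 12 weeks from 3 days, therefore cannot be told apart from a difference between these runs of numbers, while 3 days against sham and 12 weeks against 1 day lie within a run. Sham tissue was taken at 7 days, so no SCI group has a sham group of its own time. Myh6 and Myh7 are close in sequence, as are Acta1 and cardiac actin, and how reads that map to several genes were treated is not given in the sources used here, so some reads may have been split or lost between such copies. The levels of 1 gene are compared across groups, not between genes, since no transcript lengths were used.

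Myh6, the alpha chain, varied less within groups than Myh7 or Acta1, and about as much as the median gene. At 1 day its lowest, median and highest values were 19554, 24609 and 28203 CPM, at 3 days 19413, 21252 and 29946 CPM, at 12 weeks 24425, 25355 and 28858 CPM, and in sham 21842, 23315 and 27220 CPM. The groups overlapped, and both the lowest and the highest library of the series were 3 day libraries, 1.54-fold apart. The means were 23934 ± 3143 CPM at 1 day, 22707 ± 3810 at 3 days, 25933 ± 1649 at 12 weeks and 23902 ± 1964 in sham (SD, n = 6 each). The order of the means was 12 weeks, 1 day, sham and 3 days, and no neighbours in it differed by test. Against sham, the log2 fold change was 0.0019 at 1 day (95% interval -0.21 to 0.21), -0.07 at 3 days (-0.28 to 0.13) and 0.12 at 12 weeks (-0.09 to 0.325), with edgeR adjusted p-values of 0.993, 0.664 and 0.427. All 6 of the 12 week libraries lay above the sham mean. The widest gap between groups was that of 12 weeks over 3 days, a log2 fold change of 0.19 (SE 0.0996, edgeR adjusted p = 0.148), which was called without 3 day replicate 5, the library with the highest Myh6 (0.29, edgeR adjusted p = 0.016).

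Myh7, the beta chain, spread far more between libraries of 1 group than its group means differed. Its lowest, median and highest values were 1641, 1861 and 2506 CPM at 1 day, 864, 1752 and 2658 CPM at 3 days, 1187, 1919 and 4314 CPM at 12 weeks, and 1716, 1776 and 3241 CPM in sham. The ranges of all groups overlapped, and those at 3 days and 12 weeks were the widest. The means were 1935 ± 315 CPM at 1 day, 1750 ± 646 at 3 days, 2247 ± 1109 at 12 weeks and 2070 ± 602 in sham (SD, n = 6 each), so that the order was 12 weeks, sham, 1 day and 3 days, with no difference between neighbours by test. Against sham the log2 fold change was -0.10 at 1 day (95% interval -0.63 to 0.44), -0.24 at 3 days (-0.78 to 0.29) and 0.12 at 12 weeks (-0.415 to 0.65), with edgeR adjusted p-values of 0.819, 0.563 and 0.783. These intervals leave room for a change of up to about 0.65 on the log2 scale at 12 weeks. A single library set the sign at 12 weeks: without 12 week replicate 3 the value was -0.18 (edgeR adjusted p = 0.624). Only 2 of the 6 libraries at 12 weeks lay above the sham mean, while the 12 week median lay above the sham median. Without sham replicate 5, the sham library with the most Myh7, the value was 0.29 (edgeR adjusted p = 0.456). At 1 day the value was 0.08 without sham replicate 5 (edgeR adjusted p = 0.854), and it was -0.0536, -0.0643 and -0.18 without 1 day replicates 6, 5 and 4. At 3 days it was -0.0655 without sham replicate 5, -0.10 without 3 day replicate 2 and -0.40 without 3 day replicate 5, with edgeR adjusted p-values of 0.896, 0.825 and 0.325.

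**Figure D1:**
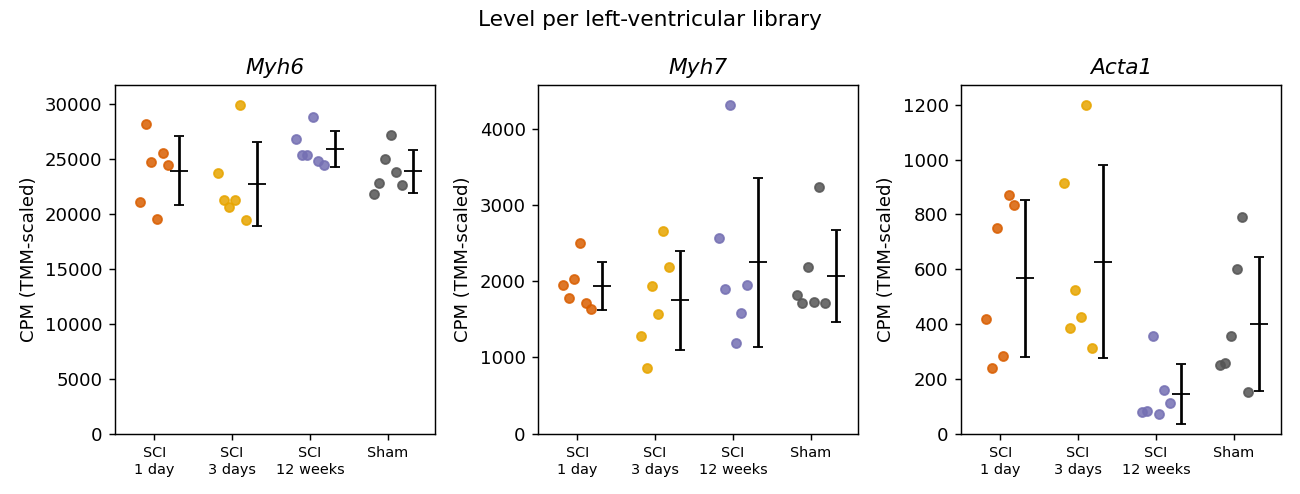
Level of each gene in CPM (TMM-scaled, y axes from 0) in every library, by group (x axis), with points for libraries and a bar for the mean with its SD (n = 6). Myh6 and Myh7 overlap across all groups, and 5 of the 6 Acta1 values at 12 weeks lie near or below the lowest sham value.

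The ratio of Myh7 to Myh6 counts within a library does not depend on how libraries are scaled. No library held more Myh7 than Myh6 counts. The ratio was 0.0630 to 0.128 at 1 day with a median of 0.0745, 0.0406 to 0.113 at 3 days with a median of 0.0814, 0.0411 to 0.170 at 12 weeks with a median of 0.0772, and 0.0636 to 0.136 in sham with a median of 0.0795. The medians lay close together, and every range overlapped the others. As a share of the counts of both genes, Myh7 made up 7.65 ± 2.06% at 1 day, 7.13 ± 2.30% at 3 days, 7.92 ± 3.61% at 12 weeks and 7.96 ± 2.09% in sham (SD, n = 6 each).

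No shift between the isoforms was detected by an exact permutation test of the log2 ratio, two-sided over all arrangements of the 12 libraries, in any of the 6 comparisons. Relative to sham, the ratio was 0.956-fold at 1 day (95% interval 0.681 to 1.34, from the same exact permutation test), 0.866-fold at 3 days (0.566 to 1.31) and 0.944-fold at 12 weeks (0.586 to 1.53). The exact permutation p-values were 0.742, 0.465 and 0.829, each 0.952 after adjustment over the 6 comparisons, where the smallest p this design can give is 0.00216. Among the SCI groups, 3 days against 1 day gave 0.906-fold, 12 weeks against 1 day 0.987-fold and 12 weeks against 3 days 1.09-fold, with exact permutation p-values of 0.608, 0.952 and 0.721. The intervals do not show that the ratio was equal between groups; at 12 weeks against sham they allow a rise of 1.53-fold.

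**Figure D2:**
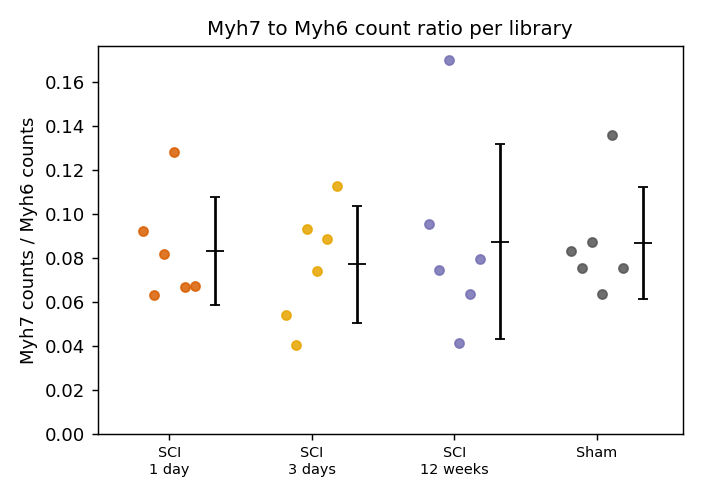
Counts of Myh7 divided by counts of Myh6 (y axis from 0) in every library, by group (x axis), with points for libraries and a bar for the mean with its SD (n = 6). The values run from 0.0406 to 0.170 and the 4 groups overlap.

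The 2 ends of that range show how far single libraries lay apart within a group. At 12 weeks, replicate 4 had 24.3 Myh6 counts for each Myh7 count and replicate 3 had 5.88. At 3 days, replicate 2 had 24.6 and replicate 6 had 8.87. In sham, replicate 5 stood apart with 7.35, where the others had 11.4 to 15.7. The log2 ratio had an SD of 0.388 at 1 day, 0.548 at 3 days, 0.676 at 12 weeks and 0.372 in sham; whether the spread differed between groups was not tested. Adding both genes, myosin heavy chain RNA reached 25869 ± 2919 CPM at 1 day, 24457 ± 4156 at 3 days, 28180 ± 1704 at 12 weeks and 25971 ± 2080 in sham (SD, n = 6 each).

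Acta1, skeletal alpha actin, was the only member called, and it was lower at 12 weeks than in sham. This difference cannot be told apart from one between the runs of library numbers or in the time of tissue collection. At 12 weeks the lowest, median and highest Acta1 values were 71.7, 99.4 and 356 CPM, against 153, 306 and 791 CPM in sham. Most of the 12 week libraries lay below all sham libraries, with replicates 3 and 5, at 356 and 160 CPM, inside the sham range. The means were 144 ± 109 CPM at 12 weeks and 401 ± 244 CPM in sham (SD, n = 6 each), and all 6 of the 12 week libraries lay below the sham mean. The log2 fold change was -1.48 (SE 0.452, 95% interval -2.42 to -0.532), or 0.36-fold, with an edgeR adjusted p of 0.0207. In bulk tissue, fewer cells that make a transcript and less of it per cell cannot be told apart. The call was lost without sham replicate 5, the sham library with the most Acta1 (-1.16, edgeR adjusted p = 0.0706), and without 12 week replicate 4, the one with the least (-1.33, edgeR adjusted p = 0.0502); over all 24 fits that each left out 1 library the value ran from -1.98 to -1.16.

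At the acute times Acta1 lay above sham on average without passing the test. Its lowest, median and highest values were 240, 584 and 870 CPM at 1 day and 312, 476 and 1201 CPM at 3 days, against 153, 306 and 791 CPM in sham. The acute libraries covered most of the sham range, from 240 CPM upward, and reached beyond it, and 4 of 6 at each time exceeded the sham mean. The means were 567 ± 285 CPM at 1 day and 627 ± 352 CPM at 3 days, against 401 ± 244 CPM in sham (SD, n = 6 each). The log2 fold change was 0.50 at 1 day (95% interval -0.42 to 1.42, edgeR adjusted p = 0.441) and 0.64 at 3 days (-0.28 to 1.57, edgeR adjusted p = 0.346). Without single libraries the 1 day value ran from 0.34 (without 1 day replicate 5) to 0.82 (without sham replicate 5), and the 3 day value from 0.35 (without 3 day replicate 5) to 0.96 (without sham replicate 5), none of them called.

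Set against the acute groups, the 12 week level was lower by a wider margin than against sham, as point estimates. The acute groups themselves were not told apart from sham by test. Acta1 at 12 weeks was 0.255-fold of its level at 1 day, a log2 fold change of -1.97 (SE 0.458, edgeR adjusted p = 0.00183), and this comparison lies within 1 run of library numbers. Relative to 3 days, across the runs, it was 0.23-fold, a log2 fold change of -2.12 (SE 0.461, edgeR adjusted p = 0.00114). No sham group was taken at 1 day, 3 days or 12 weeks. Injury and time alone therefore cannot be told apart in either comparison. In both comparisons 12 week replicate 3 was the only 12 week library that reached into the range of the acute group, and all 6 lay below the acute mean. Leaving out any 1 of the 24 libraries kept the call in both, with values of -2.48 to -1.81 against 1 day and -2.62 to -1.83 against 3 days. The 3 day and 1 day levels were not told apart (log2 fold change 0.15, 95% interval -0.78 to 1.07, edgeR adjusted p = 0.906). The order of the means was therefore 3 days, 1 day, sham and 12 weeks, and of the neighbours in it only sham and 12 weeks differed by test.

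**Figure D3:**
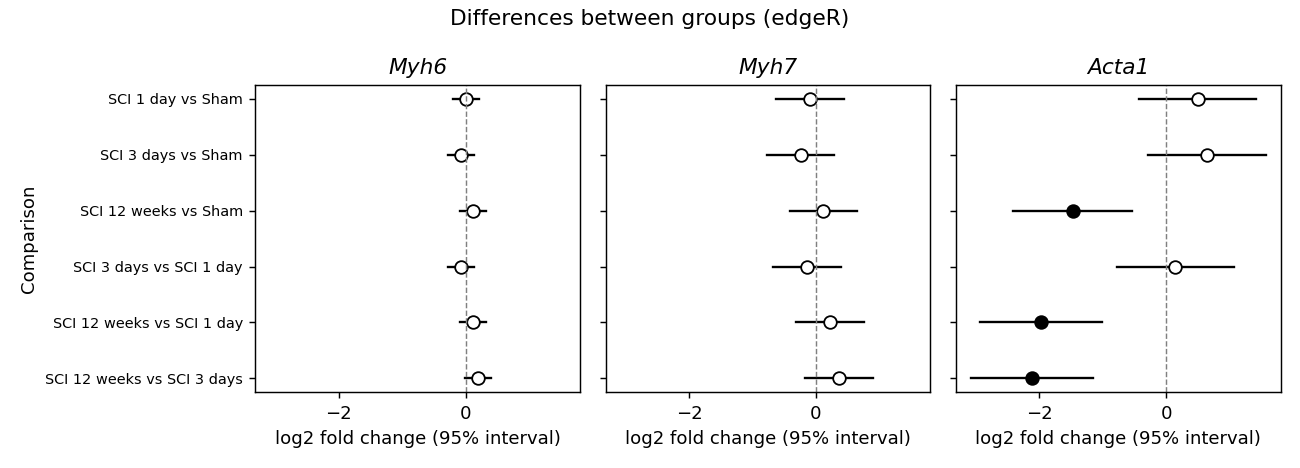
Log2 fold change with its 95% interval (x axis) for each comparison (rows) and gene (panels), first-named group over second, from edgeR; filled points have an adjusted p under 0.05. The filled points are the 3 Acta1 comparisons of 12 weeks, from -2.12 to -1.48.

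The members' calls stand here beside those of all 15065 genes tested. At 1 day, edgeR called 24% of all genes and 0 of the 3 members, and at 3 days 17.5% of all genes and 0 members. At neither time did any member reach an unadjusted p under 0.05 with edgeR, DESeq2 or limma-voom, or an adjusted p under it. At 12 weeks against sham, 1 of 3 members was called, as lower, where 22.1% of all genes were called and 10.9% were called lower. Against 1 day, the 12 week group again had 1 of 3 members called lower, where 33.9% of all genes were called and 16.1% lower, and against 3 days it had 1 of 3, where 31.3% were called and 15.3% lower. Between 3 days and 1 day, 2.74% of all genes and 0 members were called, again with 0 at an unadjusted p under 0.05 by any of these tools. For 12 weeks against 3 days, 1 member had an unadjusted p under 0.05 with edgeR and 2 had one with DESeq2 and with limma-voom; for 12 weeks against 1 day and against sham it was 1 with each tool. The median log2 fold change of all genes was within 0.0077 of 0 in every comparison. In size, 1.73% of all genes had a larger absolute log2 fold change than Acta1 at 12 weeks against sham, whereas 64.5% exceeded Myh7 and 64.8% exceeded Myh6.

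The members also differed in how much single libraries of a group varied. The SD of log2 CPM pooled within groups was 0.165 for Myh6, 0.482 for Myh7 and 0.834 for Acta1, beside a median of 0.169 over the 11514 genes with a mean log2 CPM of at least 1. Of those genes, 51.9% varied more than Myh6, 3.91% more than Myh7 and 0.547% more than Acta1. Over all libraries Acta1 spanned 16.8-fold and Myh7 4.99-fold. Acta1 and Myh7 were both highest in replicate 3 at 12 weeks, in replicate 5 at 3 days and in replicate 5 of sham, each within its group. At 1 day this was not so, with the highest Acta1 in replicate 5 and the highest Myh7 in replicate 4. The 12 week library also had the lowest TMM factor of the series, 0.879, and its part in these values was not tested; as a share of raw counts its Acta1 was still the highest of its group, at 0.0313%.

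Within groups, the relation between members was measured by the correlation of log2 CPM over 6 libraries, with an exact permutation p over 720 pairings and adjustment over 12 relations. None passed. For Myh7 with Acta1, Pearson's r was -0.496 at 1 day, 0.302 at 3 days, 0.708 at 12 weeks and 0.684 in sham (exact permutation p = 0.326, 0.558, 0.129 and 0.143), and Spearman's rho was -0.543, 0.257, 0.486 and 0.714 (exact permutation p = 0.297, 0.658, 0.356 and 0.136). Without the 2 libraries farthest from the median of Myh7, r was 0.109, -0.846, -0.841 and 0.0214 in the same order. With 4 libraries left and the extremes of Myh7 removed, these values cannot show whether the positive values rest on those libraries. The strongest relation was that of Myh6 with Acta1 at 3 days, with r = 0.914 (exact permutation p = 0.00694, adjusted p = 0.0833) and rho = 0.829 (exact permutation p = 0.0583, adjusted p = 0.408), and r was 0.587 without the 2 farthest libraries. For Myh6 with Myh7 in each group, and Myh6 with Acta1 outside the 3 day group, exact permutation p-values adjusted over the 12 relations were 0.39 to 0.897 for r and 0.408 to 1 for rho.

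**Figure D4:**
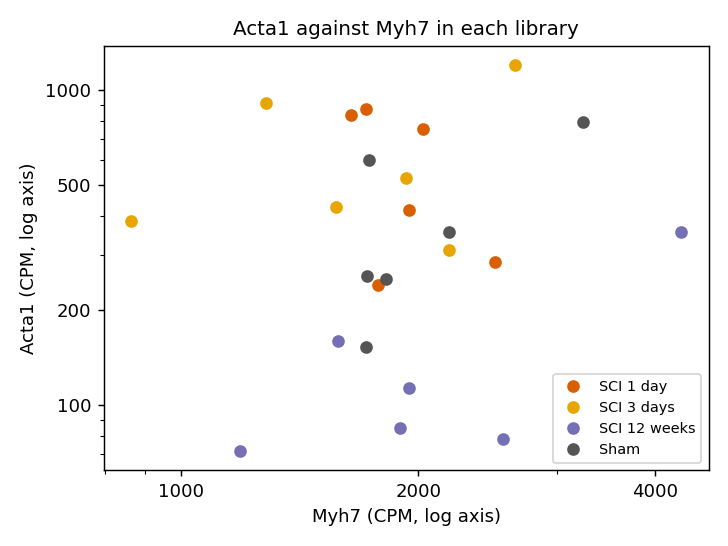
Acta1 against Myh7 in CPM (both axes logarithmic), 1 point per library, coloured by group. The 12 week libraries run from 71.7 to 356 CPM of Acta1 and from 1187 to 4314 CPM of Myh7, and the one highest in Myh7 is also highest in Acta1, inside the sham range.

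The genes whose levels followed each member most closely over the 24 libraries are known here by ID alone. For Acta1 the closest of 11511 genes was ENSRNOG00000014665, with Pearson's r of 0.846 in log2 CPM. Its level was 100 ± 9.55 CPM at 1 day, 113 ± 21.0 at 3 days, 69.2 ± 4.36 at 12 weeks and 88.1 ± 8.64 in sham (SD, n = 6 each), so it shared the order of the Acta1 means with a smaller range. For Myh6 the closest was ENSRNOG00000003026 (r = 0.806), and for Myh7 it was ENSRNOG00000012664 (r = 0.713, with a Spearman's rho of 0.443). Points of 1 group share their condition, and these values describe likeness only.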

How the data were processed

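The authors deposited 1 table of raw counts, with a line per gene ID and a column for each of 24 libraries. Per the labels' protocols, total RNA was depleted of ribosomal RNA and made into strand-specific paired-end libraries. The tools listed per the submitters' processing notes are featureCounts 2.0.6, STAR 2.7.11a and FastQC 0.12.1, with build mRatBN7.2. Strand setting, annotation release and handling of multi-mapped reads were not given in the sources used here. The 26166 lines hold 23098 IDs; 781 IDs stand on more than 1 line with identical counts, and each was used once.

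Counts were fitted in R 4.3.3 with edgeR 4.0.16 (filterByExpr, 15065 genes kept, TMM factors, a term per group, all 24 libraries, 20 residual degrees of freedom). Contrasts used the two-sided quasi-likelihood F test with Benjamini-Hochberg adjustment over all tested genes, and a gene is called at an adjusted p under 0.05. A standard error is the absolute log2 fold change over the square root of F, and the 95% intervals of log2 fold changes from these and are approximate. Single values per library were compared by exact permutation, and the interval of a ratio holds the shifts that this test does not reject. Scripts were tested on simulated data. DESeq2 1.42.0, limma 3.58.1 (voom), other scalings, no filter, the replicate block, only the groups compared and leaving out each library were tried.

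Separate rats for all libraries are not stated outright in the labels, so p-values measure the spread between these samples, which may be partly technical. The members and lists were chosen with earlier results of these data known. The text names the members and, for each, the ID with the highest Pearson correlation over all libraries among genes with a mean log2 CPM of at least 1 (prior count 2). The files give IDs only, and the reference gene table (GRCr8) has no Ensembl IDs, so a list of other sarcomere genes and switch regulators and the lists of cell type markers were not run. All 3 members matched RefSeq by symbol for sequences; the pairing of their IDs with symbols was taken as given.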

Additional observations from a re-analysis of the deposited data

Results flagged for a closer look

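Sham replicate 5 had a Myh7 level of 3241 CPM, far from the other sham libraries, of which the next had 2188 CPM, and with it a Myh7 to Myh6 count ratio of 0.136, where the next had 0.0874. At 12 weeks, replicate 3 had an Acta1 level of 356 CPM, where the next library had 160 CPM. Under a normal distribution, gaps this large relative to the range are met by chance in about 1 of 20 groups of 6 libraries. The CPM values and ratios were not put on a log scale for this rule, and their distribution was not tested. These are 3 among 16 groups of values looked at, of which the first 2 share a library and a gene.

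Acta1 differed between times after SCI by direct test, with log2 fold changes of -1.97 for 12 weeks over 1 day and -2.12 for 12 weeks over 3 days (edgeR adjusted p = 0.00183 and 0.00114, 6 of 6 libraries below the acute mean in each). The design has no sham group at each of these times, so the test compares the groups and not the effect of injury at each time.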

How the results depend on the processing

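The 3 Acta1 calls at 12 weeks kept their direction and their side of the threshold under DESeq2 size factors, raw library totals, no filter, DESeq2, limma-voom, only the groups compared and the replicate block; leaving out single libraries ended the call against sham in the 2 fits given in the report. With the replicate block the values were -1.55 against sham, -2.04 against 1 day and -2.20 against 3 days. Same-numbered libraries did not deviate together (correlations of -0.178 to 0.151 over 36 pairs, 4 of them over 0.1, and 3 of 24 libraries closest to their own number), so the numbers are not taken to pair samples, and the block changed no call of a member.

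Uncalled values near 0 changed sign. Myh6 at 1 day against sham was -0.0068 with limma-voom. Taken as a difference of medians, the log2 ratio of Myh7 to Myh6 was 0.029 for 3 days and sham, 0.129 for 3 days and 1 day, 0.0576 for 12 weeks and 1 day and -0.0711 for 12 weeks and 3 days. As a share of both genes, 12 weeks lay 0.276 percentage points above 1 day. The cause was not tested, and none was called.

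Leaving out 1 library at a time gave these lowest and highest values. Myh6 gave -0.0504 and 0.0538 at 1 day against sham, with a sign change without 1 day replicates 2, 3, 5 or 6 or sham replicates 1, 2 or 6, and 0.15 and 0.286 at 12 weeks against 3 days, the second called without 3 day replicate 5. Myh7 gave -0.18 and 0.0826 at 1 day against sham. At 12 weeks against sham it gave -0.18 without 12 week replicate 3 and 0.29 without sham replicate 5. At 12 weeks against 1 day it gave -0.0784 and 0.34, the first without 12 week replicate 3. Acta1 gave -1.98 and -1.16 at 12 weeks against sham, and -0.15 and 0.31 at 3 days against 1 day, below 0 without 1 day replicate 2 or 3 day replicate 5. The log2 ratio gave -0.20 and 0.0732 at 1 day against sham, above 0 without 1 day replicate 2 or sham replicate 5, and -0.30 and 0.11 at 12 weeks against sham, above 0 without 12 week replicate 4 or sham replicate 5. It gave -0.27 and 0.0269 at 3 days against 1 day, above 0 without 3 day replicate 2. At 12 weeks it gave -0.24 and 0.17 against 1 day, above 0 without 12 week replicates 4 or 5 or 1 day replicates 1 or 4, and -0.0959 and 0.31 against 3 days, below 0 without 12 week replicate 3 or 3 day replicate 2.

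The number of all genes called between 3 days and 1 day, 413, was 811 with DESeq2, 259 with only those groups and 253 with raw library totals. It was 170 to 653 without single libraries, with 653 without 12 week replicate 3, 239, 254 and 170 without 1 day replicates 1, 4 and 5, and 259, 185 and 275 without 3 day replicates 2, 4 and 6. The lowest count of a member in any library was 1234; what limits the calls of the members was not tested.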
